A study of Mus musculus with 29 samples.

Results

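Trib3 and 7 further genes of the amino acid stress response were followed across livers of mice on 4 diets. The genes were Trib3, Asns, Chac1, Sesn2, Atf4, Atf5, Atf3 and Ddit3, taken by symbol from the spots that were not controls. They were represented by 9 of 39429 probes, 1 for each gene and a second one for Atf4. All 8 genes were among the 19465 tested, so none was lost to the filter on dim probes.

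The livers came from C57BL/6N wild-type males, 3 months old when the diets began. For 7 weeks every animal, the controls included, ate a diet rich in corn oil. In 8 mice the omega-3 fatty acids EPA and DHA, carried by phospholipids rich in phosphatidylcholine, replaced about 7% of the dietary lipid (cHF+PC). A low dose of rosiglitazone, a drug that activates the nuclear receptor PPAR-gamma, was added to the diet of 6 mice (cHF+R), 8 mice received both (cHF+PC+R), and 7 mice ate the corn-oil diet alone (cHF). There was no chow-fed group among these arrays, so every change is relative to mice that also ate a high-fat diet. Each level is the log2 ratio of a liver's RNA, labelled with Cy5, to a pool of all samples, labelled with Cy3, and each change is a difference of group means of that ratio.

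When amino acids run short or misfolded protein builds up, kinases such as GCN2 and PERK phosphorylate the translation factor eIF2alpha. Bulk protein synthesis then slows while translation of the transcription factor ATF4 increases. ATF4 pairs with other bZIP proteins on composite C/EBP-ATF elements and drives asparagine synthetase, amino acid carriers, aminoacyl-tRNA synthetases, CHOP and Trib3. Trib3 is a pseudokinase that binds ATF4 and restrains it, and in liver it is known as an inhibitor of the insulin-activated kinase Akt.

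The core of the composite element was searched as TGATGNAA on both strands of RefSeq promoter windows of GRCm38.p6, from 250 bases before to 50 after each gene's annotated start. Of 32851 windows in the whole table, 3.97% held it, and 0.895% held the stricter form TGATGCAA, which is contained in the first. All 8 genes had a window, and Atf5 had a second one. A match was found for 4 genes: Trib3, Chac1, Asns and Atf3. Those sites are shown because they match the core of the element through which ATF4 is known to act. The 8 matching bases are in capitals, among 30 bases in all, 5′ to 3′ on the strand of the gene.
Trib3: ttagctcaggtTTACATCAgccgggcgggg
Chac1: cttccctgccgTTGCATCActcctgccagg
Asns: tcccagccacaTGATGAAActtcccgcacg
Atf3: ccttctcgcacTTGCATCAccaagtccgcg

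The Trib3 stretch is chr2:152344028-152344057 on the minus strand, and its match begins at base 15 of the annotated transcript. The Chac1 stretch is chr2:119351038-119351067 on the plus strand, with a match that begins at position -193 from the start. The Asns stretch is chr6:7693214-7693243 on the minus strand, with a match that begins at position -23. The Atf3 stretch is chr1:191183425-191183454 on the minus strand, with a match that begins at position -110. Chac1 and Atf3 held the stricter form, read on the opposite strand, as was the Trib3 match. The windows of Sesn2, Atf4, Atf5 and Ddit3 did not contain these letters, and sequence outside the windows was not searched. A match is a description of sequence, and binding was not measured here.

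All 29 livers read as liver: each of 9 hepatocyte markers was well above background on 29 of 29 arrays. Per array, between 55.0% and 62.5% of spots were well above background in Cy5, except for cHF replicate 4 with 80.8%. Without that array Trib3 was higher by 1.28 in cHF+PC (limma adjusted p = 0.0122), 1.05 in cHF+R (0.0637) and 1.23 in cHF+PC+R (0.0073) than in cHF. Arrays of the same group correlated with a median r of 0.363 over all genes, arrays of different groups with 0.171, and the lowest r between 2 arrays was -0.305. The dyes are stated in the labels and run the same way on every array. In whole liver, fewer cells of a type and less RNA per cell cannot be told apart. The 2 tested adipocyte markers rose with rosiglitazone alone, while 0 of 2 passed in cHF+PC+R against cHF. Cfd rose by 4.51 ± 0.84 (SE, adjusted p = 0.0015) and Retn by 0.65 ± 0.18 (adjusted p = 0.0456) in cHF+R against cHF, while Adipoq was well above background on 2 of 29 arrays, Plin1 on 2 and Lep on 0. The mean of Cfd and Retn ran between -3.24 and -1.46 in cHF+PC livers, between -0.72 and 1.92 in cHF+R, between -2.71 and 2.01 in cHF+PC+R, and between -2.49 and -1.36 in cHF. Whether Cfd and Retn came from adipocytes, and whether they had a part in the changes below, was not tested. Of the other marker lists, 1 hepatocyte, 1 endothelial, 1 stellate and 1 pancreas gene passed in cHF+PC against cHF, all lower. In cHF+R against cHF 1 hepatocyte and 1 erythroid gene did, both lower. The list medians in cHF+R against cHF were -0.17 for hepatocyte markers (0 of 9 above 0), 0.11 for macrophage markers (7 of 7 above 0) and 0.21 for stellate markers (5 of 6 above 0), and their part in the Trib3 change there was not tested. In cHF+PC+R against cHF, 1 hepatocyte marker was higher, and 2 hepatocyte markers and 1 each of the stellate, erythroid and pancreas lists were lower. No macrophage, cholangiocyte, lymphocyte or neutrophil marker passed in any of these 3 comparisons. Of all genes 3.93% passed in cHF+PC, 3.12% in cHF+R and 9.50% in cHF+PC+R against cHF.

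Of the 8 genes, only Trib3 passed the test, and it was higher in all 3 supplemented groups than in cHF. The test was limma's moderated fit over all genes, two-sided, with Benjamini-Hochberg adjustment over 19465 genes and a threshold of 0.05. In cHF+PC against cHF 1 of 8 genes passed and was higher, where 3.93% of all genes passed, 1.82% higher and 2.11% lower. In cHF+R against cHF it was 1 of 8, with 3.12% of all genes passing, 2.02% higher and 1.09% lower. In cHF+PC+R against cHF it was again 1 of 8, with 9.50% of all genes passing, 4.74% higher and 4.76% lower. The 3 comparisons share the same 7 cHF livers and are not independent of each other. A single called gene does not make a change of the genes as a set. Their median change was 0.08 in cHF+PC, 0.08 in cHF+R and 0.12 in cHF+PC+R, beside 0.00, 0.01 and 0.01 for all genes.

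**Figure D1:**
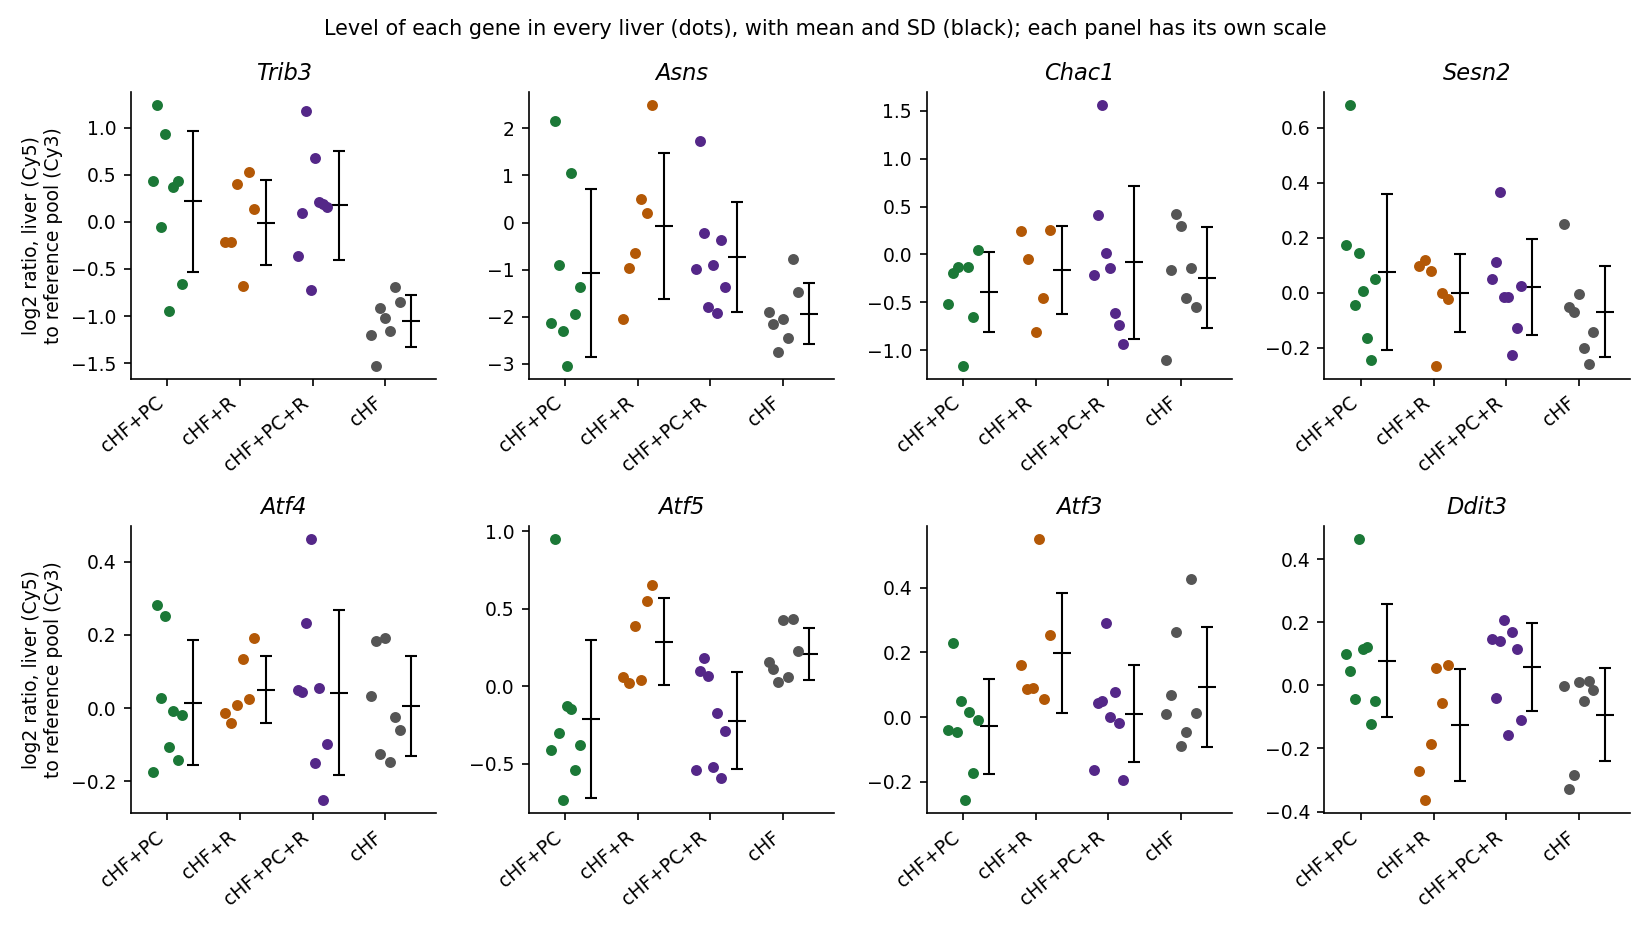
The log2 ratio of liver to reference pool is plotted for each of the 8 genes in every liver, by diet group, with the mean and SD in black; each panel has its own vertical scale. Trib3 sits between -1.53 and -0.69 in the 7 cHF livers and mostly above that range in the other groups, Asns spreads most widely between livers of a group, and Atf4 and Ddit3 stay between -0.36 and 0.46.

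Trib3 was measured by a probe at chr2:152163161-152163220 on the minus strand of mm9, the build named in the files. Its level in the 8 cHF+PC livers ran from -0.95 to 1.24 with a median of 0.40. In the 6 cHF+R livers it ran from -0.68 to 0.53 with a median of -0.04, and in the 8 cHF+PC+R livers from -0.73 to 1.17 with a median of 0.17. In the 7 cHF livers it ran from -1.53 to -0.69 with a median of -1.02. All 6 cHF+R livers were above every cHF liver, though by the narrowest of margins, since the lowest of them (replicate 4) and the highest cHF liver (replicate 6) differ by less than 0.01. This was so for 1 of the 8 genes and 2.12% of all genes in that comparison. In the other comparisons none of the 8 genes had groups without overlap, beside 1.42% of all genes in cHF+PC against cHF, 2.46% in cHF+PC+R against cHF, 1.61% in cHF+PC+R against cHF+R and 0.103% in cHF+PC+R against cHF+PC. In cHF+PC a single liver, replicate 5, lay inside the cHF range, replicate 8 lay just above it, and in cHF+PC+R replicate 4 lay inside it.

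On the fitted scale Trib3 was higher by 1.27 ± 0.27 in cHF+PC than in cHF (SE, n = 8 and 7, limma adjusted p = 0.0059), which is 2.41-fold. It was 2.06-fold higher in cHF+R, a log2 change of 1.05 ± 0.29 (n = 6 and 7, limma adjusted p = 0.0406). With both supplements, in cHF+PC+R, it was 2.34-fold higher, a log2 change of 1.23 ± 0.27 (n = 8 and 7, limma adjusted p = 0.0039). The rise in cHF+R stood close to the threshold. It was lost (adjusted p between 0.0517 and 0.100) when any 1 of 10 livers was left out, namely cHF replicates 1, 2, 3, 4 and 5 and cHF+R replicates 1, 2, 3, 5 and 6, with changes from 0.94 to 1.09 among those. The rises in cHF+PC and cHF+PC+R passed whichever of the 29 livers was left out. With arrays centred on the median in place of loess, Trib3 was higher by 1.30, 1.36 and 1.37 and passed in none of the 3 (limma adjusted p = 0.375, 0.218 and 0.123). Far fewer genes of any kind passed under that setting.

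The order of the group means was 0.22 ± 0.75 in cHF+PC (SD, n = 8), 0.18 ± 0.58 in cHF+PC+R (n = 8), -0.01 ± 0.45 in cHF+R (n = 6) and -1.05 ± 0.27 in cHF (n = 7). The first 3 neighbours in this order did not differ beyond their spread. Trib3 in cHF+PC+R differed from that in cHF+PC by -0.04 (95% interval -0.57 to 0.49, limma adjusted p = 0.980) and from that in cHF+R by 0.18 (95% interval -0.39 to 0.76, limma adjusted p = 0.753). Of the 8 genes 0 passed in cHF+PC+R against cHF+PC, beside 0.134% of all genes, 0.118% higher and 0.0154% lower, and 0 had an unadjusted limma p under 0.05, beside 8.53% of all genes. In cHF+PC+R against cHF+R 0 passed as well, beside 7.14% of all genes, 3.31% higher and 3.83% lower, and 3 had an unadjusted limma p under 0.05, beside 22.2% of all genes.

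Trib3 was higher with either supplement and with both. The interaction, which asks whether the effect of one supplement differs in the presence of the other, was -1.09 ± 0.39 for Trib3 with an unadjusted limma p of 0.0091. After adjustment over all genes it did not pass (adjusted p = 0.653), and 0 of 19465 genes did in limma's test, although 6.63% of them had an unadjusted p under 0.05. Trib3 stood at place 266 of the 19465 genes by that p. Additive and less than additive effects were not separated.

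**Figure D2:**
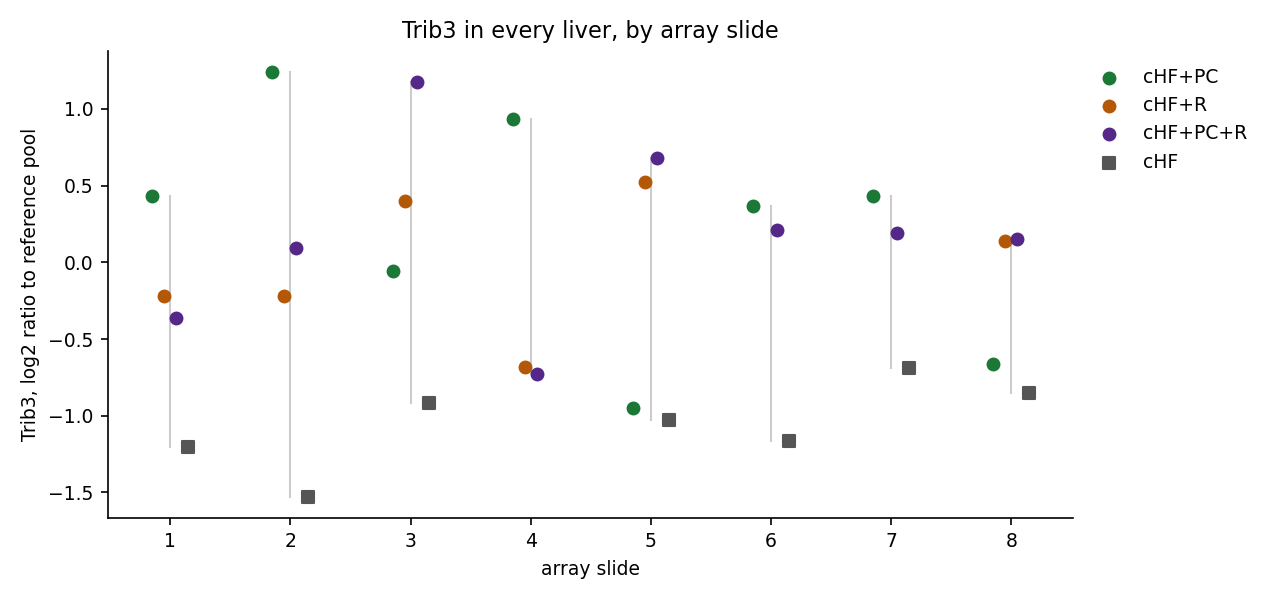
The Trib3 log2 ratio of each liver is plotted by the array slide it was hybridised on (1 to 8), with cHF livers as grey squares, other groups as circles, and a grey line over the range of each slide. On each of the 7 slides that hold a cHF liver, that liver has the lowest Trib3 of its slide.

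Each of the 8 slides carried arrays of several groups, none of them more than once, so slides could serve as blocks. Trib3 was higher in the cHF+PC than in the cHF liver on 7 of 7 slides with both, by 0.08 to 2.77 with a median of 1.12. It was higher in the cHF+R liver on 5 of 5 slides, by 0.98 to 1.55, and higher in the cHF+PC+R liver on 7 of 7 slides, by 0.84 to 2.09. The plot by slide shows that the cHF liver was the lowest on every slide that held one. With the slide as a block the changes were 1.31 (adjusted p = 0.0150), 1.13 (adjusted p = 0.0590) and 1.27 (adjusted p = 0.0092) by limma, so the call for cHF+R was lost.

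**Figure D3:**
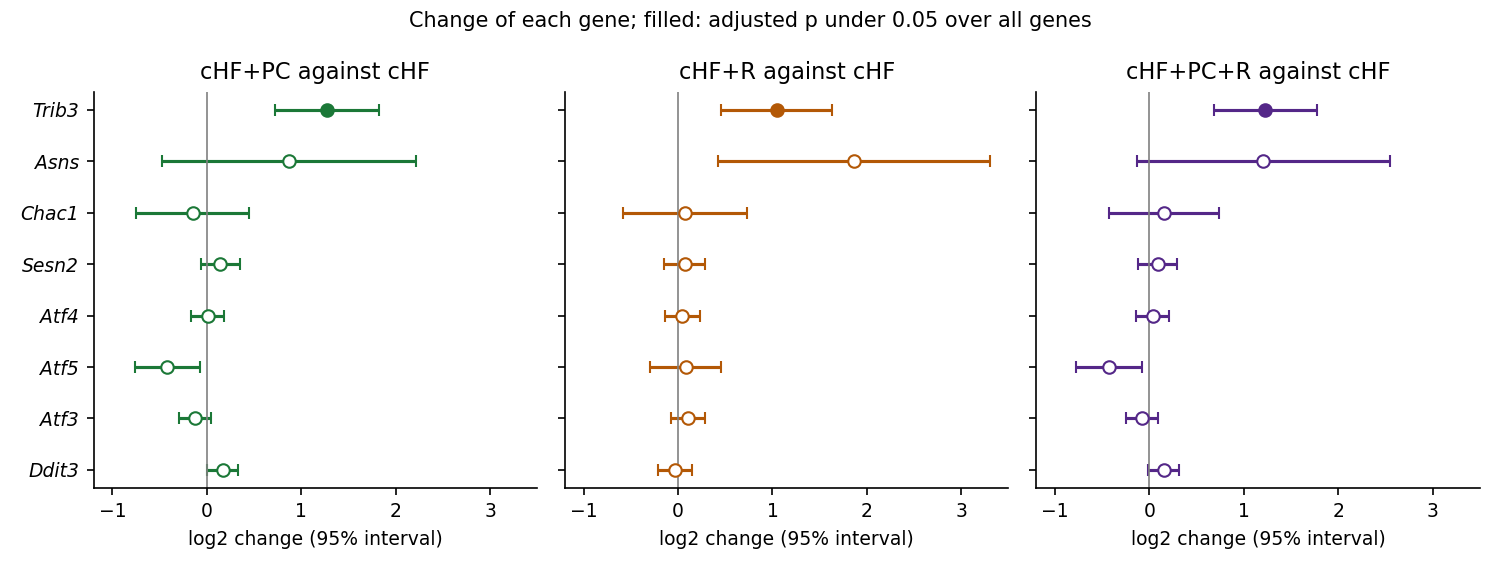
The log2 change of each gene against cHF is plotted with its 95% interval from the limma fit, in 1 panel for each supplemented group; filled symbols passed the threshold of 0.05 after adjustment over all genes. Trib3 is the only filled symbol in each panel, and the intervals of Asns are the widest.

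Asns, Chac1 and Sesn2 are further targets of ATF4, and none of the 3 passed in any comparison. Asns makes asparagine from aspartate and glutamine and is the textbook reporter of amino acid shortage. Its probe lies at chr6:7625171-7625228 on the minus strand of mm9. Its level ran from -3.04 to 2.15 in cHF+PC livers (median -1.66), from -2.05 to 2.50 in cHF+R (median -0.22) and from -1.93 to 1.73 in cHF+PC+R (median -0.94). In cHF livers it ran from -2.74 to -0.78 (median -2.05). The groups overlapped throughout, and the livers with the highest values were cHF+R replicate 6, cHF+PC replicate 2 and cHF+PC+R replicate 2. The SD between livers was 1.78 in cHF+PC, 1.55 in cHF+R, 1.16 in cHF+PC+R and 0.65 in cHF, the widest of the 8 genes in every group.

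The group means of Asns differed from cHF by 0.87 ± 0.66 in cHF+PC (limma adjusted p = 0.512), by 1.86 ± 0.71 in cHF+R (limma adjusted p = 0.171) and by 1.21 ± 0.66 in cHF+PC+R (limma adjusted p = 0.256). The change in cHF+R was the largest of any of the 8 genes in any comparison, but with a 95% interval from 0.42 to 3.31 it did not pass. Without cHF+R replicate 6 it was 1.35, and without cHF+PC replicate 2 the change in cHF+PC was 0.41. Within slides Asns was higher than in the cHF liver on 4 of 7 slides for cHF+PC, on 4 of 5 for cHF+R and on 7 of 7 for cHF+PC+R. The change of 1.21 in cHF+PC+R is close to that of Trib3 in size, and at the spread of Asns it was not detectable.

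Chac1, an enzyme that degrades glutathione, had a value on 27 of 29 arrays, since the spot was marked as an outlier on cHF+PC replicate 2 and cHF+R replicate 6. Its probe lies at chr2:119179990-119180049 on the plus strand of mm9. The level ran from -1.16 to 0.05 in cHF+PC livers, from -0.81 to 0.25 in cHF+R, from -0.94 to 1.56 in cHF+PC+R and from -1.10 to 0.43 in cHF. Changes against cHF were -0.15 ± 0.29 in cHF+PC, 0.08 ± 0.32 in cHF+R and 0.16 ± 0.28 in cHF+PC+R, with limma adjusted p from 0.788 to 0.949. The highest liver was cHF+PC+R replicate 3, and the groups overlapped. With marked spots kept, the difference in cHF+PC was 0.09 (limma adjusted p = 0.927).

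Sesn2, a sestrin that senses leucine and restrains the growth kinase mTORC1, was measured at chr4:132048858-132048917 on the minus strand of mm9. The level ran from -0.25 to 0.68 in cHF+PC livers, from -0.27 to 0.12 in cHF+R, from -0.23 to 0.37 in cHF+PC+R and from -0.26 to 0.25 in cHF. Apart from cHF+PC replicate 2, which was the highest of all 29, the groups covered much the same range. Changes against cHF were 0.14 ± 0.10 in cHF+PC, 0.07 ± 0.11 in cHF+R and 0.09 ± 0.10 in cHF+PC+R, with limma adjusted p from 0.469 to 0.824. Without cHF+PC replicate 2 the first of these was 0.06.

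The transcription factors Atf4, Atf5, Atf3 and Ddit3 did not pass either. Atf4, the hub of the response, is controlled mainly through translation, which RNA levels do not report. At the probe chr15:80086639-80086698 on the plus strand of mm9 it ran from -0.17 to 0.28 in cHF+PC livers, from -0.04 to 0.19 in cHF+R, from -0.25 to 0.46 in cHF+PC+R and from -0.15 to 0.19 in cHF. Its changes against cHF were 0.01 ± 0.08 in cHF+PC, 0.04 ± 0.09 in cHF+R and 0.04 ± 0.08 in cHF+PC+R, with limma adjusted p from 0.843 to 0.979. The 95% intervals kept Atf4 within -0.16 to 0.18, -0.14 to 0.23 and -0.14 to 0.21 of cHF. The second Atf4 probe, at chr15:80087902-80087961, was marked as an outlier spot on all 29 arrays and gave no value. It was far brighter, with a Cy5 intensity from 25073 (cHF+R replicate 2) to 58623 (cHF+PC replicate 6). The probe used ran from 514 (cHF+PC replicate 1) to 1082 (cHF+PC+R replicate 4). With marked spots kept the second probe differed by -0.02 in cHF+PC, -0.05 in cHF+R and -0.01 in cHF+PC+R against cHF (limma adjusted p from 0.886 to 0.969).

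Atf5 is an ATF4 relative under similar translational control and is abundant in hepatocytes. Its probe lies at chr7:52067627-52067686 on the minus strand of mm9. The level ran from -0.73 to 0.95 in cHF+PC livers (median -0.34), from 0.02 to 0.65 in cHF+R (median 0.22) and from -0.59 to 0.18 in cHF+PC+R (median -0.23). In cHF livers it ran from 0.03 to 0.44 (median 0.15). Of the 8 cHF+PC livers, 7 lay below every cHF liver, and replicate 2 lay above them all.

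Atf5 differed from cHF by -0.42 ± 0.17 in cHF+PC (95% interval -0.77 to -0.07) and by -0.43 ± 0.17 in cHF+PC+R (95% interval -0.78 to -0.08), and neither passed (limma adjusted p = 0.173 and 0.111). In cHF+R the change was 0.08 ± 0.18 (limma adjusted p = 0.890), and cHF+PC+R differed from cHF+R by -0.51 ± 0.18 (limma adjusted p = 0.0773). These results rested on 1 liver. Without cHF+PC replicate 2, Atf5 passed with -0.58 in cHF+PC (limma adjusted p = 0.0105), with -0.43 in cHF+PC+R (0.0244) and with -0.51 in cHF+PC+R against cHF+R (0.0140). The last 2 changes keep their size because that liver enters them only through the shared estimate of the spread. Trib3 in cHF+PC without the same liver was higher by 1.12 (limma adjusted p = 0.0159).

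Atf3, a repressor induced by many stresses, was measured at chr1:192994547-192994606 on the minus strand of mm9. It ran from -0.26 to 0.23 in cHF+PC livers, from 0.05 to 0.55 in cHF+R, from -0.20 to 0.29 in cHF+PC+R and from -0.09 to 0.43 in cHF. Changes of Atf3 against cHF were -0.12 ± 0.08 in cHF+PC, 0.11 ± 0.09 in cHF+R and -0.08 ± 0.08 in cHF+PC+R (limma adjusted p from 0.456 to 0.625). Its spot was the dimmest of the genes followed, with a mean log2 intensity of 7.35. Cy5 intensity ran from 84.1 (cHF+PC replicate 5) to 220.5 (cHF+R replicate 6). The spot was well above background in Cy5 on 29 arrays and in Cy3 on 27. At such intensities the offset of 50 can draw ratios toward 0, so these changes may be understated. All groups overlapped.

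Ddit3 encodes CHOP, the factor that follows ATF4 in prolonged stress and that induces Trib3 during endoplasmic reticulum stress. Its probe of 60 bases spans chr10:126732518-126732821 on the plus strand of mm9, that is 304 bases of genome. The level ran from -0.12 to 0.46 in cHF+PC livers, from -0.36 to 0.07 in cHF+R, from -0.16 to 0.21 in cHF+PC+R and from -0.33 to 0.01 in cHF. The spot was well above background in Cy5 on 28 of 29 arrays. The exception was cHF+PC+R replicate 8, with a Cy5 intensity of 65.7, and its value of -0.11 is among those used. Changes against cHF were 0.17 ± 0.08 in cHF+PC (limma adjusted p = 0.246), -0.03 ± 0.09 in cHF+R (0.907) and 0.15 ± 0.08 in cHF+PC+R (0.244). All groups overlapped.

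Livers of the same group differed in how high their stress genes were. In cHF+PC, replicate 2 was the highest of 8 livers for 6 of the 7 genes measured on all of them, beside 20.8% of all genes. It was also the highest for 11 of 22 further ATF4 targets and 8 of 15 aminoacyl-tRNA synthetases. In cHF+R, replicate 6 was the highest of 6 livers for 4 of 7 genes, 8 of 21 further targets and 7 of 16 synthetases, beside 24.8% of all genes. In cHF+PC+R, replicate 3 was the highest of 8 livers for 4 of 8 genes, 10 of 18 further targets and 10 of 14 synthetases, beside 11.6% of all genes. In cHF, replicate 6 was the highest of 7 livers for 5 of 8 genes, 6 of 22 further targets and 5 of 16 synthetases, beside 14.0% of all genes. On the further targets replicate 3 led with 7 of 22, and on the synthetases replicate 1 was the highest as often as replicate 6, for 5 of 16. These livers were picked after their values were seen, and the counts are descriptions.

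**Figure D4:**
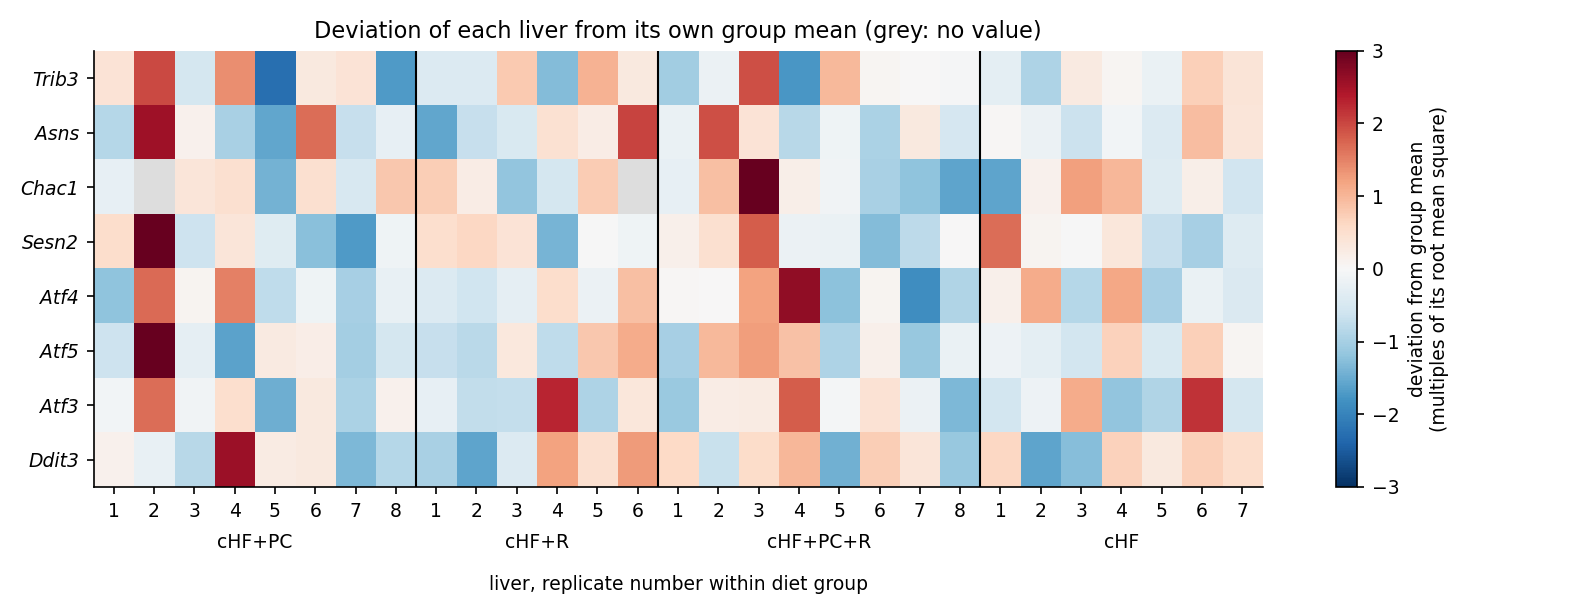
Each cell shows how far a liver lies from the mean of its own diet group for 1 gene, in multiples of the root mean square deviation of that gene, with livers in columns by group and replicate number; colours are capped at 3 in both directions and grey marks a missing value. In cHF+PC, replicate 2 is red for Trib3, Asns, Sesn2, Atf4, Atf5 and Atf3, and replicate 5 is the lowest of its group for Trib3, Asns, Chac1 and Atf3.

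Whether Trib3 varied with the other genes inside the groups was tested with deviations from group means, permuted within groups 100000 times. With 7 relations, the r of Trib3 was 0.38 with Asns, 0.38 with Sesn2, 0.33 with Chac1 (27 livers), 0.32 with Atf5, 0.12 with Atf3, 0.11 with Ddit3 and 0.04 with Atf4. The permutation p was lowest for Asns and Sesn2 at 0.0901 each, and 0.277 after adjustment over the 7. Spearman's rho ran from -0.02 to 0.28, with adjusted permutation p of 0.569 or more. Without the 2 livers farthest from the median in Trib3, r ran from -0.17 to 0.21. The 2 livers were cHF+PC replicates 2 and 5, or cHF+PC replicate 5 and cHF+PC+R replicate 3 for Chac1, which has no value in cHF+PC replicate 2. No relation passed with or without them. With slide means also removed, r with Sesn2 was 0.63 (adjusted permutation p = 0.0077, rho 0.54), and r with the other 6 genes ran from 0.20 to 0.40 and did not pass. These permutations ignored the slide, so their p takes no account of the slide means removed and can be too small.

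Over all 29 livers, without removing group means, the genes most like Trib3 among 18180 with a value on every array were Klhdc2 (r = 0.80), Lrrc51 (0.77), Maff (0.74), Gm16379 (0.74) and Aspg (0.73). Those with the lowest r were Sdr9c7 (-0.77), Tmem243 (-0.76), Slc25a45 (-0.74), Tmem19 (-0.74) and LOC545681 (-0.73). Group differences enter these values, and the points share the reference pool. Within groups, the likest named genes were 4931408D14Rik (r = 0.73), Eif4ebp1 (0.72), Aspg (0.70) and Mettl27 (0.68). Eif4ebp1, an inhibitor of cap-dependent translation and a known ATF4 target, differed by 0.14 ± 0.08 in cHF+PC, 0.13 ± 0.09 in cHF+R and 0.04 ± 0.08 in cHF+PC+R against cHF, none past the threshold. Asns stood at place 564 of these genes over all livers and 727 within groups, and Sesn2 at 913 and 706.

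**Figure D5:**
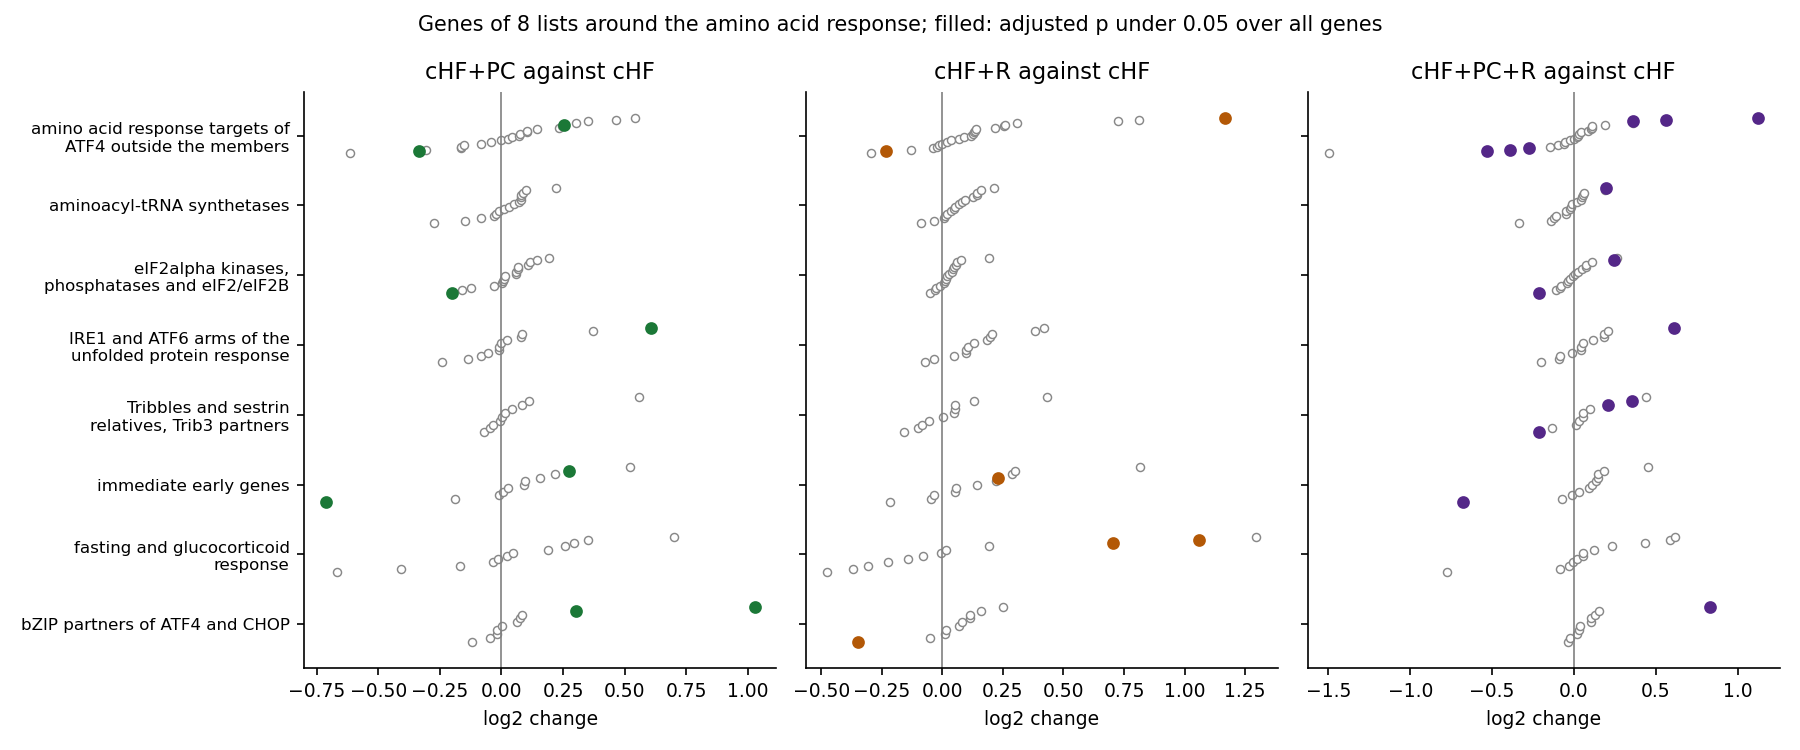
The log2 change against cHF is plotted for the genes of 8 lists around the amino acid response, 1 dot for each gene and 1 panel for each supplemented group, with filled dots for genes past the threshold of 0.05 after adjustment over all genes. Most dots are open and lie near 0 in every panel, and the filled ones lie on both sides of 0 in the list of ATF4 targets.

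The rest of the pathway was followed through 8 lists of genes. Counts past the threshold stand beside 3.93% of all genes in cHF+PC, 3.12% in cHF+R and 9.50% in cHF+PC+R against cHF. With median centring, 37 of the 40 calls made on these lists against cHF or cHF+R were lost, and with the slide as a block 9 of the 40. Of 27 further ATF4 targets 23 were tested. In cHF+PC against cHF 1 rose and 1 fell, with a list median of 0.07 against 0.00 for all genes. Shmt2, the mitochondrial serine hydroxymethyltransferase, rose by 0.25 ± 0.05 (limma adjusted p = 0.0035), and Psph, the last enzyme of serine synthesis, fell by 0.33 ± 0.09 (limma adjusted p = 0.0265). The call for Psph was lost without cHF replicate 5 or 6 or cHF+PC replicate 4 or 6 (limma adjusted p of up to 0.0687), with the mean of its probes (0.121) and with the slide as a block (0.0664). In cHF+R against cHF 1 rose and 1 fell, with a list median of 0.12 against 0.01. Vldlr, a lipoprotein receptor that ATF4 can induce, rose by 1.17 ± 0.19 (limma adjusted p = 3e-04) and Shmt2 fell by 0.23 ± 0.05 (limma adjusted p = 0.0105). Whether ATF4 had a part in either change was not tested.

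Vldlr ran from -0.80 to 0.00 in cHF+PC livers, from -0.48 to 1.22 in cHF+R, from -0.10 to 0.66 in cHF+PC+R and from -1.12 to -0.42 in cHF. The cHF+PC+R livers did not overlap the cHF livers, as was so for 2.46% of all genes, while those of cHF+PC and cHF+R did overlap them. In cHF+PC+R against cHF 3 of 23 tested targets rose and 3 fell, with a list median of 0.03 against 0.01. Over all genes 4.74% rose and 4.76% fell there. Vldlr rose by 1.13 ± 0.17 and Herpud1, part of the machinery that removes misfolded protein from the endoplasmic reticulum, rose by 0.57 ± 0.16 with values on 25 of 29 arrays. Psph fell by 0.39 ± 0.09 and Ddit4, an inhibitor of mTORC1, fell by 0.53 ± 0.15. The other 2 were named after their values were seen: Cth, which makes cysteine, rose by 0.36 ± 0.11, and Gpt2, an alanine aminotransferase, fell by 0.27 ± 0.09. The call for Cth was lost without any 1 of 4 livers and that for Gpt2 without any 1 of 15. The calls for Ddit4 and Herpud1 were each lost without 1 liver, cHF replicate 7 (limma adjusted p = 0.0538) and cHF+PC+R replicate 1 (limma adjusted p = 0.0557). That for Herpud1 was also lost in 4 of 11 other settings, among them the slide as a block (limma adjusted p = 0.0640). Slc7a11, Aldh1l2, Stc2 and Pck2 did not pass the filter.

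All 16 aminoacyl-tRNA synthetases were tested against cHF, where 3.93% of all genes passed in cHF+PC, 3.12% in cHF+R and 9.50% in cHF+PC+R. By limma 0 synthetases passed in cHF+PC, 0 in cHF+R and 1 in cHF+PC+R. Vars, the valyl-tRNA synthetase, rose by 0.20 ± 0.04 there (limma adjusted p = 0.0047). The list medians were 0.04, 0.06 and -0.01, beside 0.00, 0.01 and 0.01 for all genes. Of 16 genes for the eIF2alpha kinases, their regulators and the factors eIF2 and eIF2B, 1 fell in cHF+PC, 0 passed in cHF+R, and 1 rose and 1 fell in cHF+PC+R. Eif2s2, the beta subunit of eIF2, fell by 0.20 ± 0.05 in cHF+PC and by 0.21 ± 0.05 in cHF+PC+R. In cHF+PC that call was lost without any 1 of 5 livers, with a limma adjusted p of up to 0.0793. Impact, an inhibitor of GCN2, rose by 0.24 ± 0.08 in cHF+PC+R. That call was lost without any 1 of 19 livers and in 6 of 11 other settings, among them the slide as a block (limma adjusted p = 0.0834).

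Of 12 genes for the IRE1 and ATF6 arms of the unfolded protein response, Dnajb9 alone passed. This co-chaperone of the endoplasmic reticulum rose by 0.61 ± 0.13 in cHF+PC (limma adjusted p = 0.0070) and by 0.61 ± 0.13 in cHF+PC+R (limma adjusted p = 0.0032), and 0 of 12 passed in cHF+R. Its level ran from -0.22 to 0.58 in cHF+PC livers, from -0.47 to 0.15 in cHF+R, from -0.37 to 0.63 in cHF+PC+R and from -0.77 to -0.17 in cHF. Both groups with the phospholipids overlapped the cHF range only at their lower ends. The 2 calls held with each of the 29 livers left out in turn. Dnajb9 was 1 of 12 genes in each case, beside 3.93% of all genes in cHF+PC and 9.50% in cHF+PC+R.

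Among 10 tested relatives and partners of Trib3, 0 passed in cHF+PC (3.93% of all genes) and in cHF+R (3.12%) against cHF. In cHF+PC+R 2 rose and 1 fell, beside 9.50% of all genes passing. The insulin receptor substrate Irs1 rose by 0.36 ± 0.09 and the insulin receptor Insr by 0.21 ± 0.07, while the sestrin Sesn3 fell by 0.21 ± 0.06. The calls for Insr and Sesn3 were lost without any 1 of 9 and any 1 of 7 livers, and that for Sesn3 also with the slide as a block (limma adjusted p = 0.0662). With the mean of its probes Insr rose by 0.10 and did not pass (limma adjusted p = 0.113). Its call was also lost with no filter on dim probes (limma adjusted p = 0.0569) and with only the compared groups (0.0767). Of 10 tested bZIP partners of ATF4 and CHOP, 2 rose in cHF+PC, 1 fell in cHF+R and 1 rose in cHF+PC+R. Maff, a small Maf protein, rose by 1.03 ± 0.24 in cHF+PC (limma adjusted p = 0.0109) and by 0.83 ± 0.24 in cHF+PC+R (limma adjusted p = 0.0234). In cHF+PC+R the call was lost without either of 2 livers, with a limma adjusted p of up to 0.0532. Creb3l3, a factor of the liver's endoplasmic reticulum membrane, rose by 0.30 ± 0.07 in cHF+PC and fell by 0.35 ± 0.08 in cHF+R, a call lost without cHF+R replicate 1.

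Stress of handling and feeding state were followed with 2 more lists, again beside 3.93% of all genes in cHF+PC, 3.12% in cHF+R and 9.50% in cHF+PC+R. Of 11 tested immediate early genes, Junb rose by 0.27 ± 0.07 and the phosphatase gene Dusp1 fell by 0.71 ± 0.20 in cHF+PC. Ier3 rose by 0.23 ± 0.06 in cHF+R, and Dusp1 fell by 0.67 ± 0.20 in cHF+PC+R. The Dusp1 calls were lost without any 1 of 9 livers in cHF+PC and of 4 in cHF+PC+R, and that of Ier3 without any 1 of 6. With the slide as a block both Dusp1 calls (limma adjusted p = 0.0755 and 0.0573) and that of Ier3 (0.0588) were lost as well. The Ier3 call was lost in 5 of 10 settings other than left-out livers. The Junb call was lost without background subtraction (limma adjusted p = 0.105), with processed signals (0.172), in the deposited table (0.365) and with only the compared groups (0.0518). Of 12 genes that answer fasting or glucocorticoids, 0 passed in cHF+PC and in cHF+PC+R against cHF by limma, and 2 rose in cHF+R. These were Pdk4, a kinase that shuts down glucose oxidation, with 1.06 ± 0.28 (limma adjusted p = 0.0320), and the cell cycle inhibitor Cdkn1a, with 0.70 ± 0.17 (limma adjusted p = 0.0143). The call for Pdk4 was lost without any 1 of 7 livers, and both calls were lost with processed signals (limma adjusted p = 0.0760 for Pdk4 and 0.120 for Cdkn1a) and in the deposited table (0.0698 and 0.0520). Their part in the rise of Trib3 was not tested.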

How the data were processed

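Total liver RNA of 29 mice was hybridised to 2-colour arrays, 1 per liver, without dye swap. Per the file headers, the deposited scanner files hold linear spot intensity in Cy5 and Cy3 with local background from Agilent Feature Extraction 10.5.1.1, and positions on mm9. Per the labels, the authors excluded 1 cHF and 1 rosiglitazone array. A second deposited file gives log2 values that track the Cy5 channel (r at least 0.990); its normalization is unstated.

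Mean intensities were corrected with normexp (offset 50) and loess-normalized with limma 3.58.1 (R 4.3.3, data.table version 1.17.8). Control spots and spots marked as outliers were left out. Probes were kept if Cy5 was well above background on 6 or more arrays and a value existed on 20 or more (23932 probes), and the brightest probe stood for its gene. Symbols were updated through RefSeq GRCm38.p6: 26412 probes were named by accession, 3854 by symbol and 735 by synonym, and 8428 kept the name in the file. Groups and replicate numbers come from the labels. Group means were fitted over all 29 arrays with lmFit and eBayes. Replicates are livers of separate mice, and their number limits the precision. The test was tried on simulated data with known changes.

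The genes and lists were chosen with earlier results of these data known. Named are all 8 genes, up to 4 genes past the threshold per list and comparison, and the 5 genes most and least like Trib3 by Pearson's r. Alternatives were raw intensities, the scanner software's processed signals, median centring, the deposited table, 2 other filters, averaged probes, blocks for slide or replicate number, fits of the compared groups alone, each array left out, and, chosen after seeing the data, marked spots kept.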

Additional observations from a re-analysis of the deposited data

Results flagged for a closer look

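In 5 of 32 groups of livers (8 genes in 4 diet groups), 1 liver stood far from the rest by Dixon's test at the 95% level, where chance alone gives about 1 in 20 groups. For Asns, cHF+PC+R replicate 2 stood far above its group with a log2 ratio of 1.73. For Atf5, cHF+PC replicate 2 stood above its group with 0.95, and without it the lower Atf5 level of both phospholipid groups passed the test. The same liver was far above its group for Sesn2, with 0.68. For Sesn2 in cHF+R, replicate 4 stood below the rest with -0.27. For Ddit3 in cHF+PC, replicate 4 stood above the rest with 0.46. Trib3 had no such liver in any group.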

How the results depend on the processing

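Limits are the 6 to 8 livers per group and the spread of Asns. Apart from the exceptions below, Trib3, the other 7 genes and the counts kept their direction where called and their side of the threshold under each alternative run. With median centring in place of loess, which shifted the median of all genes in cHF+R against cHF by 0.14, Trib3 was higher by 1.30 in cHF+PC (limma adjusted p = 0.375), 1.36 in cHF+R (0.218) and 1.37 in cHF+PC+R (0.123). The cause of these lost calls was not tested. Then 0 of the 8 genes passed, and the genes passing over the whole array numbered 10, 81 and 82 against cHF, 53 in cHF+PC+R against cHF+R and 2 in cHF+PC+R against cHF+PC, in place of 765, 607, 1850, 1389 and 26. In cHF+R against cHF, Shmt2 turned to 0.046 and Creb3l3 to 0.040.

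The call of Trib3 in cHF+R was also lost, leaving 0 of 8 genes, with Feature Extraction's processed signals (1.08, limma adjusted p = 0.0552), the deposited table (1.04, 0.0504), no filter on dim probes (1.05, 0.0530) and the slide as a block (1.13, 0.0590). Same-numbered livers correlated above 0.1 in 9 of 27 pairs on the same slide and 5 of 13 on different slides (slides known from the arrays, not from the sample labels). The number thus follows the slide in most pairs, but the livers of a number did not deviate together throughout. With the replicate block Trib3 was higher by 1.33 (limma adjusted p = 0.0090), 1.06 (0.0625) and 1.29 (0.0063) against cHF in the 3 supplemented groups (cHF+PC first, cHF+PC+R last), and the call for cHF+R was lost.

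With only the compared groups in the fit, 2 of 8 genes passed in cHF+PC+R against cHF, Trib3 higher and Atf5 lower. The limma adjusted p of Atf5 was 0.0314. With all 4 groups in the fit, 9.50% of all genes passed in that comparison, 4.74% higher and 4.76% lower. With only the compared groups, 783 genes passed for cHF+PC+R over cHF+R and 11 over cHF+PC. With the deposited values, Atf5 was the 1 of 8 that passed in cHF+PC+R against cHF+R, and 61 genes passed in cHF+PC+R against cHF+PC. Without background subtraction 1187 genes passed in cHF+PC against cHF and 81 in cHF+PC+R against cHF+PC, and 63 in the last with processed signals. Within groups, r of Trib3 passed with Sesn2 at 0.63 once slide means were removed (adjusted permutation p = 0.0077) and with Atf3 at 0.50 in the deposited table (0.0411). The p for Sesn2 takes no account of the slide means removed. With median centring r of Trib3 passed with Chac1 (0.57), Sesn2 (0.70), Atf4 (0.56), Atf5 (0.67) and Ddit3 (0.48). By Spearman's rho in that setting Chac1, Sesn2 and Atf5 passed, while Atf4 (adjusted permutation p = 0.106) and Ddit3 (0.180) did not. The cause of the higher r with median centring was not tested.

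With each liver left out in turn, Trib3 changed by 1.12 to 1.44, 0.94 to 1.18 and 1.09 to 1.36 against cHF. Genes passing numbered 440 to 872 in cHF+PC, 456 to 685 in cHF+R and 1378 to 2019 in cHF+PC+R against cHF, 760 to 1977 in cHF+PC+R against cHF+R, 13 to 56 in cHF+PC+R against cHF+PC and 0 to 4 for the interaction. Of the 8 genes, 1 to 2, 0 to 1 and 1 to 2 passed against cHF and 0 to 1 in cHF+PC+R against cHF+R. Of 40 calls on the further lists, 21 held with every liver left out. Lost were 2 without background subtraction, 8 with processed signals, 8 in the deposited table, 5 without a filter, 3 with averaged probes, 9 with the slide as a block, 5 with the replicate block and 7 with only the compared groups.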

Other observations

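With rosiglitazone in both groups, cHF+PC+R against cHF+R, 2 of 23 tested ATF4 targets rose and 2 fell, and 0 of 16 aminoacyl-tRNA synthetases passed by limma, where 7.14% of all genes passed. The list medians were -0.13 and -0.07, beside -0.01 for all genes. Among the ATF4 targets Shmt2 rose by 0.35 ± 0.05 and Cth by 0.66 ± 0.11, while Psph fell by 0.53 ± 0.09 and Ddit4 by 0.62 ± 0.15 (limma adjusted p from 1e-04 to 0.0133). Shmt2 ran from -0.21 to 0.07 in cHF+PC+R livers and from -0.53 to -0.33 in cHF+R livers, without overlap, as was found for 1.61% of all genes. Cth ran from -0.34 to 0.70 in cHF+PC+R livers, with a value on 7 of 8 arrays, and from -0.71 to -0.25 in cHF+R livers. These 4 calls held with each of the 29 livers left out in turn. The adipocyte marker Cfd fell by 3.01 in the same comparison (limma adjusted p = 0.0267), and its part was not tested.

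Of 12 genes of the fasting list, 2 rose and 2 fell in the same comparison. Pck1, the rate-limiting enzyme of glucose synthesis, rose by 1.1 ± 0.34, and Cpt1a, the gatekeeper of fatty acid oxidation, by 0.32 ± 0.09. Pdk4 fell by 1.09 ± 0.27 and Cdkn1a by 0.65 ± 0.16 (limma adjusted p of the 4 from 0.0135 to 0.0450). Pck1 had a value on 7 of 8 cHF+PC+R arrays. Its call was lost without any 1 of 12 livers and in 8 of 11 other settings, among them the slide as a block (limma adjusted p = 0.0805). The call for Cpt1a was lost without cHF+R replicate 1 (limma adjusted p = 0.0788) and in 2 of 11 other settings. Creb3l3, with a value on 5 of 6 cHF+R arrays, rose by 0.45 ± 0.08, Irs1 rose by 0.35 ± 0.10 and Eif2s2 fell by 0.18 ± 0.06. The call for Eif2s2 was lost without any 1 of 8 livers and in 6 of 11 other settings, among them the slide as a block (limma adjusted p = 0.0691). That for Irs1 was lost without either of 2 livers and in 2 of 11 other settings.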
